A study of Mus musculus with 12 samples.

Results

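The 52 genes described here act in the G2 phase and in mitosis, the steps in which a cell that has copied its DNA enters division, lines its chromosomes up on a spindle, parts them and splits into daughter cells. They are a list of symbols, taken whole, and the list was chosen with earlier results of these data known. Measured counts entered the rule in the choice of transcript, the one with the highest total per gene. All 52 were found among the 25514 genes of the counts, and all 52 passed the filter on low counts that left 12971 genes to be tested. They fall into 8 roles, which are entry into mitosis (10 genes), the spindle checkpoint (5), mitotic exit and sister chromatid cohesion (7), the chromosomal passenger complex (4), the kinetochore (7), the spindle (6), cytokinesis (7) and chromosome structure (6).

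RNA-seq was done on proximal tubule (PT) cells of male mice with floxed Tgfbr2 (the gene for TβRII, a TGF-β receptor) and, from the Immorto-mouse, a T antigen that works only at a low temperature (genotype H2ts6;Tgfbr2fl/fl). TβRII-/- PT cells (H2ts6;Tgfbr2-/-) were derived from them in culture with an adenovirus that carried Cre, so each genotype is a cell line, and its libraries are not independent deletions. The 4 groups of 3 libraries were untreated TβRII flox/flox PT cells, TβRII flox/flox PT cells with H2O2, untreated TβRII-/- PT cells and TβRII-/- PT cells with H2O2. All groups shared the T antigen, which drives division at 33 °C with interferon-γ. Cells of all groups were then kept at 37 °C for 5 days, and according to the methods interferon-γ was withdrawn so that they would differentiate. How much T antigen remained was not checked here. Untreated cells stayed in normal culture medium, whereas H2O2 was given for 24 h in serum-free medium, after serum starvation according to the methods, so that H2O2 and loss of serum cannot be told apart. The dose is 200 mM in the labels and 200 μM in the methods, a difference that was not resolved.

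Mitosis is started by the kinase Cdk1 with a B-type cyclin. Transcripts of the genes that carry out mitosis build up in G2, and much of that build-up passes through a promoter element, the cell cycle genes homology region (CHR), which binds MuvB complexes. MuvB forms the repressive DREAM complex in resting cells and an activating complex with B-Myb and FoxM1 in G2, and a nearby CCAAT box that binds NF-Y is common in the same promoters. Most PT cells of a healthy kidney rest outside the cycle, and they re-enter it after injury. In cultured cells, transcripts of this kind are used as a gauge of how many cells divide.

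The CHR nearest to the start from upstream is printed for 6 members, because these genes hold the entry kinase, its cyclin, its activating kinase, the usual proliferation markers Top2a and Mki67, and Ube2c, the member with the widest genotype difference. Each run is 30 bases upstream of a transcription start given by RefSeq on GRCm38.p6, printed 5′ to 3′ on the strand of the gene. Starts differ between annotations, and 5 of the 6 runs lie within a GENCODE M39 transcript of the same gene that begins further upstream. Capitals mark the CHR (TTTGAA or TTTAAA, or the reverse complement TTCAAA). The runs are chr10:69352913-69352942 on the minus strand for Cdk1, chr13:100786511-100786540 on the minus strand for Ccnb1, chr7:122159394-122159423 on the plus strand for Plk1, chr11:99024195-99024224 on the minus strand for Top2a, chr7:135716460-135716489 on the minus strand for Mki67 and chr2:164769888-164769917 on the plus strand for Ube2c.
Cdk1: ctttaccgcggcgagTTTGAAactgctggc
Ccnb1: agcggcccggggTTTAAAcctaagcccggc
Plk1: gcgggtttgtatTTTAAAtccccgcggcca
Top2a: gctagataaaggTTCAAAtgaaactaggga
Mki67: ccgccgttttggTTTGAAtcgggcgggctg
Ube2c: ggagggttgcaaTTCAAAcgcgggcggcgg
The CHR begins 15 bases before the start of Cdk1, 42 before that of Ccnb1, 29 before that of Plk1, 23 before that of Top2a, 98 before that of Mki67 and 29 before that of Ube2c.

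The same letters and those of the CCAAT box (CCAAT, or its reverse complement ATTGG) were counted on both strands in every RefSeq promoter window, from 250 bases before to 50 after a start. The table held 47 windows for 44 members and none for Aurkb, Ccna2, Cdc25c, Foxm1, Incenp, Kif20a, Smc4 and Tpx2. Ect2, Prc1 and Bub3 each had a pair of windows. A CHR was present in 39 of the 47 windows (83.0%), against 27.6% of 32851 windows in all. A CCAAT box was present in 35 (74.5%, against 37.4%), and both were present in 32 (68.1%, against 10.7%). In 35 windows of members (74.5%) a CHR began within 50 bases of the start, where 8.28% of all windows held it. The 8 members with a window and no CHR were Bub1, Cdc25b, Mad2l1, Ncaph, Nuf2, Nusap1, Pttg1 and Sgo1. Of 42 windows of 36 other mitotic genes 54.8% held a CHR, 76.2% a CCAAT box and 42.9% both, so these letters were not particular to the members. Windows of DNA replication genes held a CHR in 8 of 29 cases (27.6%), the share of all windows. These are counts of letters and say nothing of binding.

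**Figure D1:**
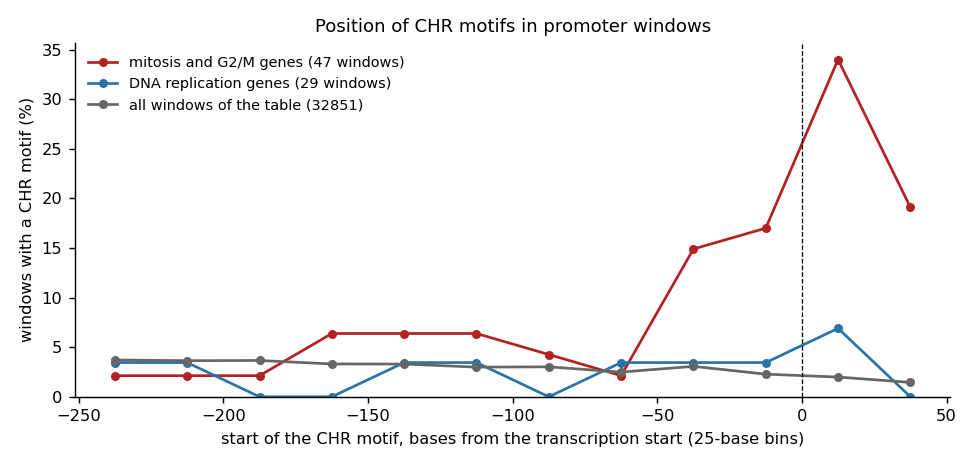
Share of promoter windows (%) in which a CHR motif begins, in bins of 25 bases, against the distance from the transcription start in bases, for the mitosis and G2/M genes (47 windows), DNA replication genes (29) and all windows (32851). In the first 25 bases after the start 34.0% of the members' windows hold a CHR start, against 1.99% of all windows.

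Libraries held between 15870155 and 20857618 counts on genes, and errors given are standard errors (SE) from the fit across all genes. Values are normalized counts, scaled by TMM to a library of 17351835 counts, and n is 3 libraries per group throughout. Labels do not say that libraries came from separate cultures, so p-values measure the spread between these libraries, which may be technical. Tgfbr2, the targeted gene, stood at 6358 to 6782 normalized counts in untreated TβRII-/- PT cells, against 7562 to 9248 in their TβRII flox/flox counterparts. With H2O2 Tgfbr2 stood at 7116 to 7311 in TβRII-/- PT cells against 13275 to 13918. Counts of a whole transcript do not resolve the deleted part, so these levels do not check the deletion. The paper states that it verified the deletion by immunoblotting and RNA-seq. Of 15 proximal tubule markers 9 were tested, with Lrp2, Aqp1, Pax2, Pax8 and Cdh16 expressed, while Slc34a1, Slc22a6, Slc22a8, Hnf4a and Miox were at or near 0 in every group. In untreated TβRII-/- PT cells 5 of the 9 were lower (Aqp1, Ggt1, Cubn, Lrp2 and Slc5a2) and 2 higher (Pax8 and Cdh16), and with H2O2 5 were lower and 3 higher. With H2O2 3 were higher in TβRII-/- PT cells and 0 lower by edgeR (1 by DESeq2 and at an unadjusted p under 0.05), and 3 were higher and 2 lower in TβRII flox/flox PT cells. All 4 epithelial markers were higher in untreated TβRII-/- PT cells, with log2 fold changes from 1.145 to 10.418 (median 5.776). Those of the 9 proximal tubule markers ran from -6.895 to 1.057. The summed level of the epithelial markers was 10610 to 10877 in untreated TβRII-/- PT cells against 2650 to 3029. With H2O2 this sum was 8644 to 9195 against 2142 to 2308, below the untreated level in both genotypes, but its genes went in both directions. In TβRII-/- PT cells Cdh1 and Epcam were higher and Krt8 and Krt18 lower with H2O2. For TβRII flox/flox PT cells Cdh1 was higher and Krt8 lower. Podocyte, distal tubule, fibroblast and leukocyte markers each summed to at most 273 in any library. The endothelial markers summed to 464 to 586 in untreated TβRII-/- PT cells and to 127 to 138 in the TβRII flox/flox counterparts untreated. With H2O2 they summed to 39 to 63 and 23 to 26, and Kdr, nearly all of that sum untreated, was lower in both genotypes (-3.41 ± 0.13 and -2.57 ± 0.19) with a called interaction (-0.84 ± 0.27), while Pecam1 was at or near 0. The part of these differences in the results was not tested.

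H2O2 in serum-free medium went with lower levels of every member in TβRII-/- PT cells and with a smaller fall of some members in TβRII flox/flox PT cells. The summed level of the 52 genes was 123717 to 126527 normalized counts in untreated TβRII-/- PT cells and 86721 to 89201 with H2O2. In TβRII flox/flox PT cells it was 116042 to 120319 untreated and 104119 to 108636 with H2O2. The H2O2-treated libraries lay below the untreated ones in both genotypes, and those of TβRII-/- PT cells, which began highest, ended lowest. In bulk RNA, fewer cells in G2 and mitosis and less of these transcripts per cell cannot be told apart.

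Each gene was tested with edgeR's quasi-likelihood test over all 12 libraries and called at a Benjamini-Hochberg adjusted p under 0.05. In TβRII-/- PT cells all 52 members were lower with H2O2, where 19.1% of all genes tested were lower and 20.5% higher. Their median log2 fold change was -0.53 (0.02 over all genes tested), so that 69.4% of the untreated level was left at the median. The falls ranged from -0.27 for Cdc25b to -0.74 for Birc5, the latter a 1.67-fold fall. The 3 libraries with H2O2 lay below the 3 untreated libraries for every member, which held for 24.7% of all genes. Past the limits the study used, an unadjusted p under 0.01 and a fold change of 1.5, were 18 members, all lower, with 7.77% of all genes past them in either direction. No member rose by edgeR or DESeq2, and none had a fold change above 0.

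In TβRII flox/flox PT cells 31 of the 52 members were lower with H2O2, 0 were higher by edgeR or DESeq2 and 21 did not pass the threshold, where 20.5% of all genes were lower and 21.0% higher. The median log2 fold change was -0.18 (0.01 over all genes), which leaves 88.4% of the untreated level. The groups did not overlap for 32 members, all lower (23.3% of all genes), and 4 of the 31 called members had overlapping groups. No member passed the study's limits (7.56% of all genes), and the largest fold was 1.32. Fold changes above 0 were seen for 7 members, of which Cenpa alone had an unadjusted p under 0.05. The call rested in part on H2O2 replicate 2, without which 20 members were lower.

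The difference between the H2O2 effects was tested as an interaction, the log2 fold change in TβRII-/- PT cells minus that in TβRII flox/flox PT cells. It was below 0 for all 52 members, with a median of -0.34 (0.01 over all genes), and passed the threshold for 41 members, all lower (42 by DESeq2, with 0 higher by either tool at an adjusted or unadjusted p under 0.05). Of all genes tested, 6.28% had a lower and 3.90% a higher interaction. Among the 21 members not past the threshold in TβRII flox/flox PT cells 19 had a called interaction, as had 22 of the 31 that were lower in both. The interaction subtracts the change in TβRII flox/flox PT cells, so a small fall there favors a call, and these counts cannot be compared. The 11 members without a call were Bub3, Mad2l1, Ttk, Smc2, Smc4, Racgap1, Cdc25c, Ccnb2, Pttg1, Cdca5 and Ndc80. Leaving out a library moved the number of called members between 28 and 44, and it was 33 with the counts of all transcripts of a gene summed.

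**Figure D2:**
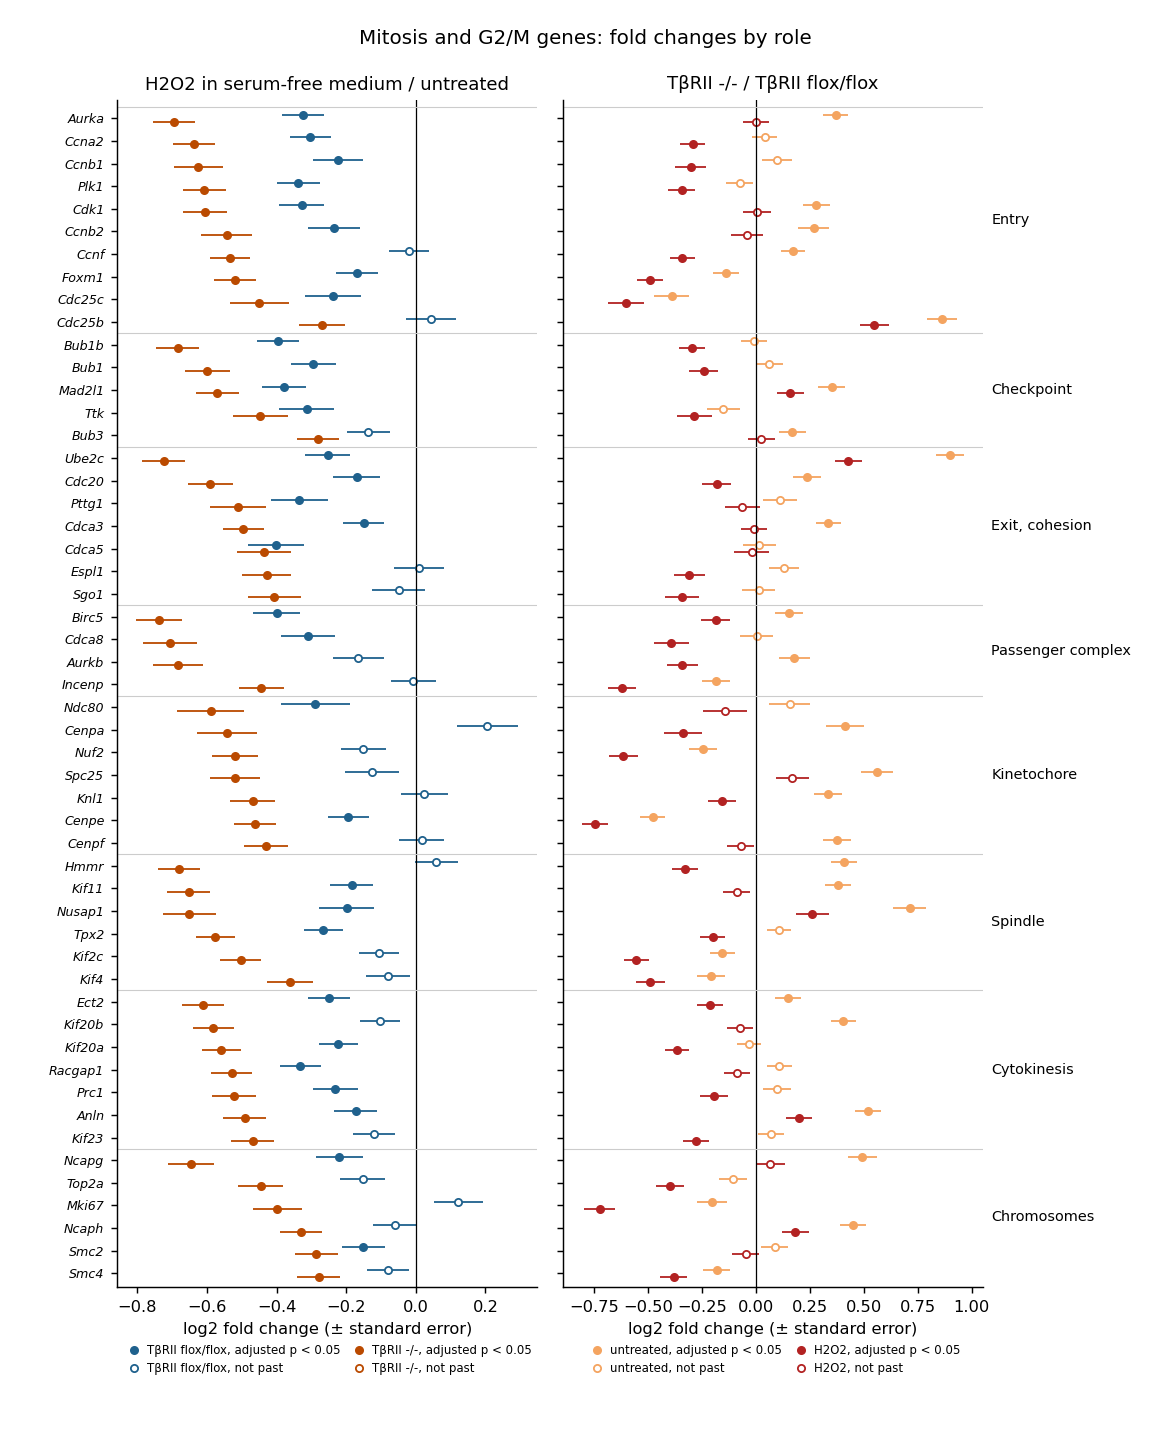
Log2 fold changes of the 52 members (points) with standard errors (bars), by role, for H2O2 in serum-free medium over untreated in each genotype (left) and for TβRII-/- over TβRII flox/flox PT cells in each condition (right); filled points have an adjusted p under 0.05. On the left all 52 points of TβRII-/- PT cells are filled and below 0, and each lies left of its TβRII flox/flox partner; on the right, 24 untreated points are filled above 0 and 31 H2O2 points are filled below 0.

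Among the 10 genes of mitotic entry, all 10 fell with H2O2 in TβRII-/- PT cells, 8 fell in TβRII flox/flox PT cells, and 8 had a called interaction. Cdk1, the kinase that starts mitosis, was at 1501, 1670 and 1713 normalized counts in the untreated and 1387, 1190 and 1313 in the H2O2-treated libraries of TβRII flox/flox PT cells. For TβRII-/- PT cells the Cdk1 levels were 1927, 2020 and 1978 untreated and 1326, 1335 and 1234 with H2O2. The untreated and H2O2-treated libraries did not overlap in either genotype. The genotypes were apart untreated and overlapped with H2O2, where they differed by a log2 of 0.00 ± 0.07. The log2 fold change was -0.60 ± 0.06 (adjusted p = 5.05e-09) in TβRII-/- and -0.33 ± 0.07 (0.000146) in TβRII flox/flox PT cells, with an interaction of -0.28 ± 0.09 (adjusted p = 0.0481). That interaction lay close to the threshold and was not called in 11 of 18 alternatives, with adjusted p from 0.0137 to 0.124.

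Ccnb1, the cyclin that activates Cdk1 at mitotic entry, was at 949, 1048 and 1061 untreated and 874, 808 and 939 with H2O2 in TβRII flox/flox PT cells. It was at 1102, 1062 and 1108 untreated and 645, 761 and 713 with H2O2 in TβRII-/- PT cells. Its untreated levels differed by less than the threshold between genotypes (0.10 ± 0.07) and its H2O2 levels were lower in TβRII-/- PT cells (-0.30 ± 0.07), with an interaction of -0.40 ± 0.10 (adjusted p = 0.00824). Without H2O2 replicate 2 of TβRII flox/flox PT cells the fall of Ccnb1 in that genotype, -0.22 ± 0.07, was -0.17 and lost its call (adjusted p = 0.0958, range over alternatives 0.00439 to 0.0958). Plk1, a kinase that promotes the activation of Cdk1 and the building of the spindle, was at 2272, 2394 and 2371 untreated and 1959, 1724 and 1883 with H2O2 in TβRII flox/flox PT cells. It was at 2107, 2164 and 2400 untreated and 1470, 1422 and 1490 with H2O2 in TβRII-/- PT cells, the lowest 3 of all libraries. Its interaction of -0.27 ± 0.09 (adjusted p = 0.0445) was lost in 10 of 18 alternatives.

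Ccnf, an F-box protein that directs protein breakdown in G2, was at 1583, 1635 and 1655 untreated and 1606, 1640 and 1558 with H2O2 in TβRII flox/flox PT cells. The TβRII-/- levels were 1815, 1873 and 1801 untreated and 1332, 1227 and 1233 with H2O2. The TβRII flox/flox groups overlapped and those of TβRII-/- PT cells did not, with an interaction of -0.51 ± 0.08 (adjusted p = 5.84e-05), among the 3 members with the smallest p. The phosphatases that remove the inhibitory phosphates of Cdk1 differed from each other. Cdc25b was at 578, 620 and 625 untreated and 577, 662 and 638 with H2O2 in TβRII flox/flox PT cells and at 1042, 1112 and 1155 untreated and 897, 943 and 905 with H2O2 in TβRII-/- PT cells, so that every TβRII-/- library lay above every TβRII flox/flox library. Cdc25c was at 499, 488 and 455 untreated and 382, 404 and 439 with H2O2 in TβRII flox/flox PT cells and at 363, 367 and 370 untreated and 258, 288 and 258 with H2O2 in TβRII-/- PT cells, where every library lay below those of TβRII flox/flox PT cells. Cdc25b had the smallest fall of all members in TβRII-/- PT cells (-0.27 ± 0.07) and did not change past the threshold in TβRII flox/flox PT cells (0.04 ± 0.07), and its interaction of -0.31 was lost in 8 of 18 alternatives (adjusted p from 0.0112 to 0.0909). Cdc25c fell in both TβRII-/- (-0.45 ± 0.08) and TβRII flox/flox PT cells (-0.24 ± 0.08), and the latter call was lost in 5 of 13 alternatives. The other entry genes fell in TβRII-/- PT cells as follows. Aurka, a centrosome kinase, was at -0.69 ± 0.06, and Ccna2, a cyclin of S and G2 phase, at -0.64 ± 0.06. Ccnb2, the other B-type cyclin, was at -0.54 ± 0.07, and Foxm1, a transcription factor of G2 genes, at -0.52 ± 0.06. An exon overlap with genes on the opposite strand covers 57.9% of the Aurka transcript and 24.1% of that of Ccna2, and the strand setting of the counting is not stated, so these values are uncertain.

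**Figure D3:**
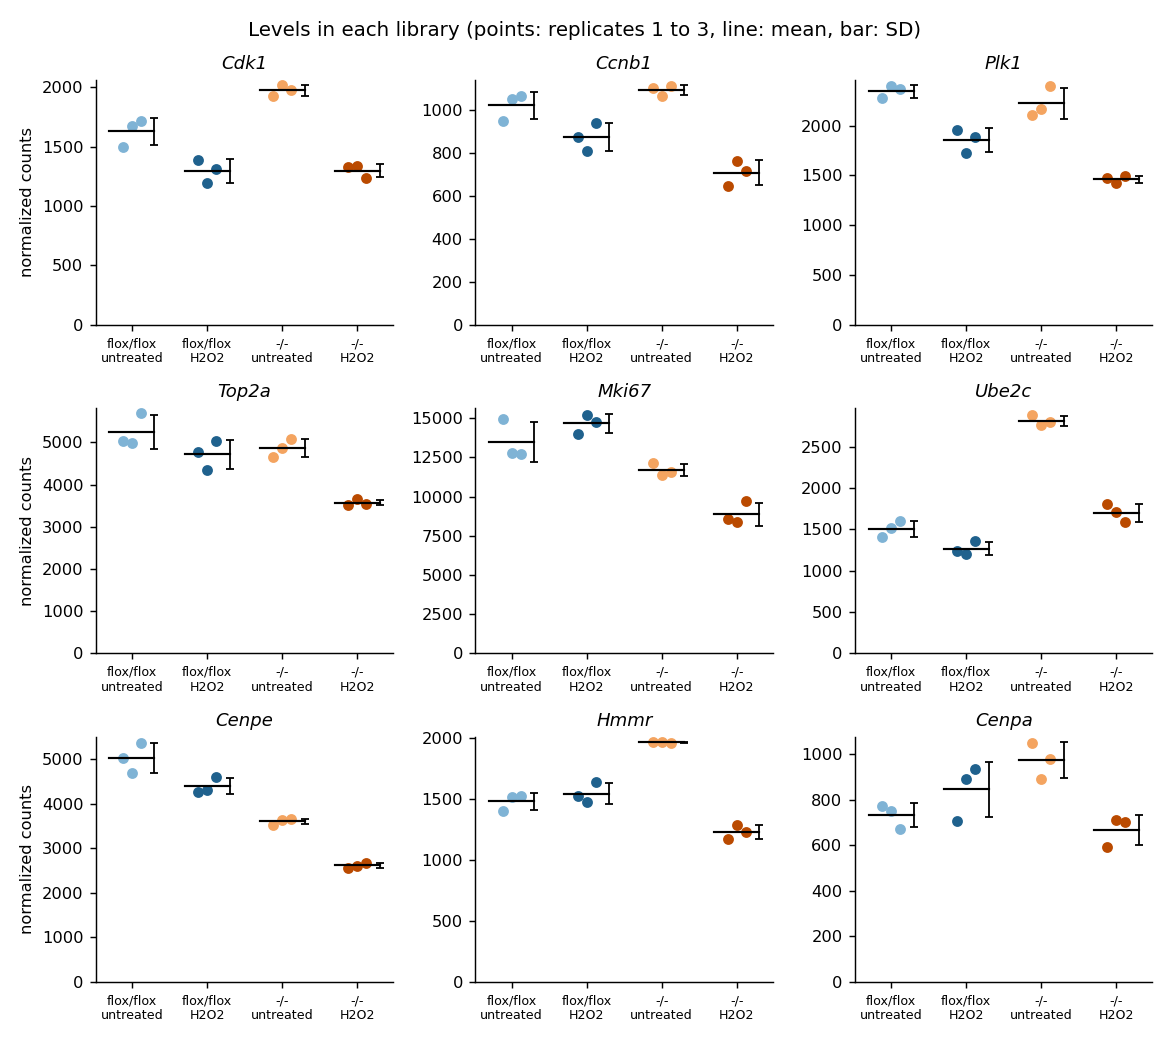
Normalized counts of 9 members in each library (points, 3 per group), with the group mean (line) and SD (bar), for untreated and H2O2-treated TβRII flox/flox and TβRII-/- PT cells; each axis starts at 0. Hmmr, Cenpa and Mki67 have overlapping TβRII flox/flox groups and a TβRII-/- H2O2 group below its untreated group; Cenpe is lower in TβRII-/- PT cells in both conditions, and Ube2c is higher in both.

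The 5 checkpoint genes, which hold cells before anaphase until chromosomes are attached, all fell in TβRII-/- PT cells and 4 fell in TβRII flox/flox PT cells. This was the role with the largest median fall in TβRII flox/flox PT cells (-0.31), and only Bub1 and Bub1b had a called interaction. Bub1b (BubR1), part of the inhibitor of the anaphase-promoting complex, was at 1924, 1947 and 2107 untreated and 1564, 1452 and 1525 with H2O2 in TβRII flox/flox PT cells. Levels in TβRII-/- PT cells were 2068, 1835 and 2039 untreated and 1212, 1224 and 1263 with H2O2. The untreated levels overlapped, and the H2O2 levels of TβRII-/- PT cells were below all others, with falls of -0.68 ± 0.06 (adjusted p = 1.64e-10) and -0.40 ± 0.06 (4.46e-06). Its interaction of -0.29 ± 0.09 was lost in 5 of 18 alternatives (adjusted p from 0.00584 to 0.0889). Mad2l1 (Mad2), its partner in that inhibitor, fell in TβRII-/- (-0.57 ± 0.06) and in TβRII flox/flox PT cells (-0.38 ± 0.06). The kinase Ttk (Mps1) fell in both as well, at -0.45 ± 0.08 and -0.31 ± 0.08, and Bub1, a kinase of the kinetochore, at -0.60 ± 0.06 and -0.29 ± 0.06. Bub3 had the smallest change of the 5, -0.28 ± 0.06 in TβRII-/- and -0.14 ± 0.06 in TβRII flox/flox PT cells, the latter not past the threshold.

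All 7 genes of mitotic exit and cohesion fell in TβRII-/- PT cells, 5 fell in TβRII flox/flox PT cells and 5 had a called interaction. Ube2c, the ubiquitin-conjugating enzyme that works with the anaphase-promoting complex, was at 1410, 1513 and 1600 untreated and 1244, 1198 and 1355 with H2O2 in TβRII flox/flox PT cells. It was at 2882, 2760 and 2795 untreated and 1808, 1710 and 1585 with H2O2 in TβRII-/- PT cells. Untreated and H2O2-treated libraries did not overlap in either genotype, and those of TβRII-/- PT cells with H2O2 overlapped the untreated ones of TβRII flox/flox PT cells. Ube2c fell more in TβRII-/- (-0.72 ± 0.06) than in TβRII flox/flox PT cells (-0.25 ± 0.07), with an interaction of -0.47 ± 0.09 (adjusted p = 0.000692). Cdca5 (sororin), which holds cohesin on sister chromatids, had the interaction nearest to 0 of all members. It was at 494, 535 and 494 untreated and 403, 377 and 372 with H2O2 in TβRII flox/flox PT cells and at 490, 517 and 530 untreated and 344, 405 and 387 with H2O2 in TβRII-/- PT cells. The levels of the genotypes overlapped in both conditions, the fall in TβRII flox/flox PT cells (-0.40 ± 0.08) was the largest there, beside those of Birc5 and Bub1b, and the interaction was -0.03 ± 0.11 (adjusted p = 0.903). Pttg1 (securin), the inhibitor of separase, fell in both genotypes as well, while Espl1 (separase), which cuts cohesin, and Sgo1, which protects it at centromeres, fell in TβRII-/- PT cells (-0.43 ± 0.07 and -0.41 ± 0.08) and were at 0.01 ± 0.07 and -0.05 ± 0.08 in TβRII flox/flox PT cells. Their interactions were called, at -0.44 ± 0.10 and -0.36 ± 0.11. Cdc20, which activates the anaphase-promoting complex, had an interaction of -0.42 ± 0.09. Cdca3, whose place in this role is a choice made here and not a result, had one of -0.35 ± 0.08.

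The chromosomal passenger complex, which corrects attachments of chromosomes to the spindle and then guides cytokinesis, had the largest median fall of the 8 roles in TβRII-/- PT cells (-0.69), and the interaction was called for all 4 subunits. Birc5 (survivin) had the largest fall of any member in TβRII-/- PT cells, -0.74 ± 0.07 (adjusted p = 1.89e-10). It was at 1717, 1876 and 1773 untreated and 1153, 1008 and 1061 with H2O2 in those cells, and at 1480, 1639 and 1715 untreated and 1174, 1190 and 1303 with H2O2 in TβRII flox/flox PT cells. The subunit Cdca8 (borealin) was at 885, 1073 and 974 untreated and 839, 695 and 831 with H2O2 in TβRII flox/flox PT cells and at 979, 1038 and 919 untreated and 605, 627 and 567 with H2O2 in TβRII-/- PT cells. Both fell in both genotypes, with no overlap of untreated and H2O2-treated libraries. Their interactions were -0.34 ± 0.09 and -0.40 ± 0.11, calls that were lost without untreated replicate 2 of TβRII-/- PT cells (-0.30 and -0.35) and, for Birc5, without their H2O2 replicate 2 (-0.29) or, for Cdca8, without their H2O2 replicate 3 (-0.36). The Birc5 interaction also lost its call with transcripts summed (-0.35, adjusted p = 0.0515). Birc5 was called higher in untreated TβRII-/- PT cells (0.15), but 8 of 13 alternatives lost that call (adjusted p from 0.0156 to 0.264). Incenp, the scaffold of the complex, did not pass the threshold in TβRII flox/flox PT cells, where it was at 4489, 4900 and 4062 untreated and 4540, 4569 and 4275 with H2O2. The TβRII-/- levels were 4022, 3950 and 3853 untreated and 2787, 2779 and 3133 with H2O2. The H2O2 change was -0.01 ± 0.07 and not past the threshold in the former, and -0.44 ± 0.07 in the latter, where the groups were apart (interaction -0.44 ± 0.09, adjusted p = 0.00205). Aurkb, the kinase of the complex, fell in TβRII-/- PT cells (-0.68 ± 0.07) and stood at -0.16 ± 0.07 in TβRII flox/flox PT cells, with an interaction of -0.52 ± 0.10.

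The 7 kinetochore genes, whose proteins link centromeres to microtubules, all fell in TβRII-/- PT cells, while only Cenpe and Ndc80 fell in TβRII flox/flox PT cells and Ndc80 alone had no called interaction. Cenpa, the histone H3 variant that marks the centromere, had the most negative interaction of all members, -0.75 ± 0.12 (adjusted p = 0.000112). It was at 774, 750 and 673 untreated and 708, 892 and 938 with H2O2 in TβRII flox/flox PT cells and at 1052, 892 and 980 untreated and 593, 710 and 702 with H2O2 in TβRII-/- PT cells. In TβRII flox/flox PT cells 2 of 3 H2O2 libraries lay above all untreated ones, without passing the threshold (0.21 ± 0.09), and in TβRII-/- PT cells all 3 lay below. The Cenpa values depended on the transcript chosen. With its transcripts summed the change in TβRII flox/flox PT cells was -0.12 (adjusted p = 0.296, range over alternatives 0.00321 to 0.296) and the interaction was -0.49 (adjusted p = 0.0188). Leaving out untreated replicate 1 or H2O2 replicate 1 of TβRII flox/flox PT cells, on the chosen transcript, made it a rise of 0.26 or 0.33.

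Cenpe, the kinesin that carries chromosomes to the spindle equator, was at 5026, 4685 and 5368 untreated and 4266, 4318 and 4605 with H2O2 in TβRII flox/flox PT cells. It was at 3529, 3634 and 3647 untreated and 2566, 2607 and 2675 with H2O2 in TβRII-/- PT cells. Every TβRII-/- library lay below every TβRII flox/flox library of either condition, and its interaction of -0.27 ± 0.08 was lost in 10 of 18 alternatives (adjusted p from 0.00398 to 0.106). Its fall in TβRII flox/flox PT cells lost its call without their untreated replicate 3 (-0.14, adjusted p = 0.0596) or H2O2 replicate 1 (-0.17, adjusted p = 0.0525), in a range over alternatives from 0.00321 to 0.0596. Nuf2, a subunit of the Ndc80 complex that grips microtubules, was at 1112, 1160 and 1181 untreated and 1003, 1033 and 1073 with H2O2 in TβRII flox/flox PT cells. Levels in TβRII-/- PT cells were 913, 994 and 1003 untreated and 658, 646 and 729 with H2O2. The TβRII-/- libraries were lower in each condition, and the change with H2O2 was -0.52 ± 0.07 there and -0.15 ± 0.06 in TβRII flox/flox PT cells, the latter not past the threshold although its groups did not overlap. The other subunits Ndc80 and Spc25 were at -0.59 ± 0.10 and -0.52 ± 0.07 in TβRII-/- PT cells. The checkpoint scaffold Knl1 and the corona protein Cenpf were at -0.47 ± 0.07 and -0.43 ± 0.06 there. Knl1 and Cenpf were at 0.02 ± 0.07 and 0.02 ± 0.06 in TβRII flox/flox PT cells. An opposite-strand overlap covers 42.6% of the Spc25 transcript.

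All 6 spindle genes fell in TβRII-/- PT cells and all 6 had a called interaction, while Kif11, Tpx2 and Nusap1 fell in TβRII flox/flox PT cells. Hmmr, which binds spindle microtubules, had the smallest interaction p of all members, with -0.74 ± 0.09 (adjusted p = 4.46e-07). Hmmr was at 1399, 1517 and 1523 untreated and 1520, 1471 and 1635 with H2O2 in TβRII flox/flox PT cells. It was at 1965, 1969 and 1960 untreated and 1170, 1282 and 1226 with H2O2 in TβRII-/- PT cells. The TβRII-/- libraries were the highest of all untreated and the lowest of all with H2O2, while the TβRII flox/flox groups overlapped. Nusap1, which bundles spindle microtubules, was at 1013, 1197 and 1279 untreated and 1123, 888 and 1027 with H2O2 in TβRII flox/flox PT cells and at 1901, 1818 and 1996 untreated and 1226, 1268 and 1145 with H2O2 in TβRII-/- PT cells. Its fall in TβRII-/- PT cells, -0.65 ± 0.08, came from groups that did not overlap. That in TβRII flox/flox PT cells, -0.20 ± 0.08, came from overlapping groups and was lost in 9 of 13 alternatives, among them leaving out H2O2 replicate 2 of those cells (-0.11). The motors Kif11 (Eg5), which pushes the poles apart, and Kif2c (MCAK), which shortens microtubules, were at -0.65 ± 0.06 and -0.50 ± 0.06 in TβRII-/- PT cells. The chromokinesin Kif4 and the spindle assembly factor Tpx2 were at -0.36 ± 0.07 and -0.58 ± 0.06 there.

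The 7 cytokinesis genes fell together in TβRII-/- PT cells within a narrow range, from -0.47 for Kif23 to -0.61 for Ect2. Of these, 5 fell in TβRII flox/flox PT cells and 6 had a called interaction, Racgap1 being the exception (-0.20 ± 0.08, adjusted p = 0.136). Racgap1 and Kif23 form centralspindlin, which recruits Ect2, the exchange factor that activates RhoA at the cleavage site. Racgap1 fell in TβRII-/- (-0.53 ± 0.06) and in TβRII flox/flox PT cells (-0.33 ± 0.06), while Kif23 was at -0.12 ± 0.06 in the latter, not past the threshold. Prc1, which bundles midzone microtubules, and the motors Kif20a and Kif20b had interactions of -0.29 ± 0.09, -0.34 ± 0.08 and -0.48 ± 0.08, and Anln, a scaffold of the contractile ring, -0.32 ± 0.09. Opposite-strand genes overlap 66.9% of the Kif20a transcript and 31.6% of that of Prc1.

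Of the 6 genes of chromosome structure, all fell in TβRII-/- PT cells, and 2, Ncapg and Smc2, fell in TβRII flox/flox PT cells (-0.22 ± 0.07 and -0.15 ± 0.06, the latter with an adjusted p of 0.0498). The median fall in TβRII-/- PT cells (-0.36) was the smallest of the 8 roles. Top2a, the topoisomerase that untangles sister DNA, was at 5032, 4989 and 5702 untreated and 4774, 4345 and 5026 with H2O2 in TβRII flox/flox PT cells. Its TβRII-/- levels were 4663, 4864 and 5079 untreated and 3519, 3652 and 3551 with H2O2. The untreated genotypes overlapped, and the 3 TβRII-/- libraries with H2O2 were the lowest of the 12. The change was -0.45 ± 0.06 (adjusted p = 1.57e-06) there and -0.15 ± 0.06 (0.0555) in TβRII flox/flox PT cells, where 4 of 13 alternatives called it lower (adjusted p from 0.0377 to 0.319). Its interaction of -0.29 ± 0.09 was lost in 7 of 18 alternatives.

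Mki67, which coats mitotic chromosomes and encodes the Ki-67 antigen, was at 14936, 12791 and 12691 untreated and 14006, 15224 and 14768 with H2O2 in TβRII flox/flox PT cells. It was at 12150, 11367 and 11572 untreated and 8559, 8359 and 9709 with H2O2 in TβRII-/- PT cells. Its TβRII flox/flox groups overlapped, whereas in TβRII-/- PT cells all H2O2 libraries were below the untreated ones. The changes were 0.12 ± 0.07 (adjusted p = 0.166) and -0.40 ± 0.07 (3.53e-05), with an interaction of -0.52 ± 0.10 (0.000691). Without untreated replicate 1 of TβRII flox/flox PT cells, the highest of its group, Mki67 rose with H2O2 there by 0.21 (adjusted p = 0.0115, range over alternatives 0.0115 to 0.39). The core subunits Smc2 and Smc4, which condensin I and II share, were at -0.29 ± 0.06 and -0.28 ± 0.06 in TβRII-/- PT cells and had no called interaction. The condensin I subunits Ncapg and Ncaph were at -0.65 ± 0.07 and -0.33 ± 0.06 and had called interactions (-0.43 ± 0.09 and -0.27 ± 0.09). Differences between subunits were not tested, and Ncaph lay close to Smc2 and Smc4. An opposite-strand overlap covers 39.0% of the Ncapg transcript.

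Between the untreated genotypes the members went in both directions, 24 higher and 9 lower in TβRII-/- PT cells and 19 not past the threshold. Of all genes tested 33.3% were higher and 31.4% lower, and the median log2 fold change was 0.12 (0.01 over all genes). The study's limits were passed by 3 members, Ube2c, Cdc25b and Nusap1 (27.0% of all genes). Ube2c was higher by 0.90 ± 0.06 (adjusted p = 4.70e-14), or 1.87-fold, Cdc25b by 0.86 ± 0.07 (9.94e-13) and Nusap1 by 0.71 ± 0.08 (9.85e-10), and their groups did not overlap. The largest falls were those of Cenpe at -0.48 ± 0.06 (2.01e-08), Cdc25c at -0.39 ± 0.08 and Nuf2 at -0.25 ± 0.06. By role, 5 of 10 entry genes were higher and 2 lower, as were 4 and 2 of 7 kinetochore genes, 3 and 2 of 6 spindle genes, 2 and 2 of 6 genes of chromosome structure, and 2 and 1 of the 4 passenger genes. Of the exit and cohesion genes and of the cytokinesis genes 3 each were higher, of the checkpoint genes 2, and 0 of these were lower by edgeR or DESeq2 or at an unadjusted p under 0.05. The genotypes also differed in epithelial markers, as given above, and in cyclins of G1, which went in both directions. In untreated TβRII-/- PT cells Ccnd1 was 5.83-fold higher and Ccnd2 was 2.17-fold lower. Of 6 G1 cyclins and Cdks 3 were higher and 2 lower there. Of 45 other mitotic genes 18 were higher and 5 lower, and of 32 DNA replication genes 17 and 4. The remaining lists of cell cycle genes also held more higher than lower genes, such as 10 and 3 of 18 E2F and MuvB genes.

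With H2O2 the members were mostly lower in TβRII-/- than in TβRII flox/flox PT cells, with 31 lower, 6 higher and 15 not past the threshold, where 31.3% of all genes were lower and 35.1% higher. The median log2 fold change was -0.21 (0.02 over all genes). This was not particular to the members. Of 45 other mitotic genes 26 were lower and 5 higher (median -0.25), whereas of 32 DNA replication genes 2 were lower and 21 higher (median 0.265). Past the study's limits were 5 members, all lower (29.8% of all genes). The largest falls were those of Cenpe at -0.75 ± 0.06 (adjusted p = 1.14e-12), Mki67 at -0.72 ± 0.07 (1.14e-10) and Incenp at -0.62 ± 0.07 (6.35e-10). The largest rises were again those of Cdc25b (0.55 ± 0.07), Ube2c (0.43 ± 0.06) and Nusap1 (0.26 ± 0.08), the last of which was 0.15 and lost its call (adjusted p = 0.115, range over alternatives 0.000313 to 0.115) without H2O2 replicate 2 of TβRII flox/flox PT cells. The number of higher members was 3 without H2O2 replicate 2 or 3 of TβRII flox/flox PT cells. All 4 passenger genes were lower, as were 6 of 10 entry genes. Of the 24 members that were higher untreated, 8 were lower with H2O2, 6 were still higher and 10 did not pass the threshold. All 9 that were lower untreated were lower with H2O2 too, and 14 that had not passed the threshold untreated were lower. The pairwise comparisons share libraries, so these counts are not independent of each other.

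Members also differed in abundance. Per kb of the transcript counted, and averaged over the 12 libraries, Ube2c had the highest level (1884 normalized counts per kb), followed by Ccna2 (1641) and Mki67 (1186). The lowest were Cdc25b (106), Knl1 (114.5) and Ttk (145). Beside the promoter letters, the H2O2 changes were as follows. In TβRII-/- PT cells the median log2 fold change was -0.53 for the 36 members with a CHR, -0.52 for the 8 with a window and no CHR and -0.54 for the 8 without a window. In TβRII flox/flox PT cells the medians were -0.18, -0.17 and -0.20. Between the genotypes (TβRII-/- over TβRII flox/flox) they were 0.154, 0.231 and -0.085 untreated and -0.184, 0.048 and -0.375 with H2O2. Differences between these sets of members were not tested.

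Other lists of cell cycle genes were counted in the same fits. Of all genes tested, 19.1% were lower and 20.5% higher with H2O2 in TβRII-/- PT cells. The shares in TβRII flox/flox PT cells were 20.5% and 21.0%, and interactions were lower for 6.28% and higher for 3.90%. Several of the counts below lie near these shares. Of 45 other mitotic genes, 40 were lower with H2O2 in TβRII-/- PT cells and 0 higher by edgeR or DESeq2 (median -0.45), 18 were lower and 2 higher in TβRII flox/flox PT cells (median -0.16), and 24 had a lower interaction. Among them Kif18a, a motor that dampens chromosome movements, had the largest fall in TβRII-/- PT cells (-0.88 ± 0.09). Depdc1a and Cdkn3, a phosphatase that acts on Cdks, had interactions of -0.89 ± 0.11 and -1.04 ± 0.18. DNA replication genes went in both directions. Of 32, 11 were higher and 7 lower with H2O2 in TβRII-/- PT cells (median 0.03), 6 were higher and 5 lower in TβRII flox/flox PT cells, and 3 had a higher interaction, among them Gins2, a part of the replicative helicase (0.38 ± 0.10). The summed level of these 32 genes was 78844 to 83106 untreated and 78666 to 83400 with H2O2 in TβRII-/- PT cells, so that the groups overlapped.

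The anaphase-promoting complex, which Cdc20 and Ube2c serve, was counted by 14 subunits and the coactivator Fzr1 (Cdh1), of which 5 of 15 were lower in each genotype. No interaction was called among them by edgeR or DESeq2, and Anapc2 alone had an unadjusted p under 0.05. Of 12 genes of cohesin, its regulators, condensin II and the condensin I subunit Ncapd2, 1 was lower in TβRII-/- PT cells, and 3 were higher and 2 lower in TβRII flox/flox PT cells. The interaction was called lower for Smc1a (-0.29 ± 0.09) and Ncapg2 (-0.37 ± 0.09). A list of 8 regulators around Cdk1 holds its brakes Wee1, Pkmyt1, Chek1 and Chek2 beside Cdc25a, an activating phosphatase, and Mastl, Ensa and Arpp19, which promote mitosis. In each genotype 1 was higher and 1 lower. Pkmyt1, the kinase that places an inhibitory phosphate on Cdk1, rose in both, by 0.59 ± 0.08 in TβRII flox/flox and 0.26 ± 0.08 in TβRII-/- PT cells. The lower genes were Cdc25a in TβRII flox/flox (-0.24 ± 0.07) and Mastl in TβRII-/- PT cells (-0.21 ± 0.07). Of 18 E2F and MuvB genes 6 were lower and 1 higher in TβRII-/- PT cells (19.1% and 20.5% of all genes). In TβRII flox/flox PT cells 4 were lower (20.5% of all genes). Of 12 genes of Cdk inhibitors and the p53 pathway, 5 were higher and 4 lower in TβRII-/- PT cells, with Cdkn2b at 0.52 ± 0.07 and Cdkn1c at 0.49 ± 0.12. The 4 lower genes were Ccng1, Btg2, Cdkn1a and Cdkn2d. In TβRII flox/flox PT cells 3 were higher (Gadd45a, Cdkn2b and Cdkn1c, the last at 0.64 ± 0.15) and 2 lower. Called interactions numbered 0 by edgeR, and 1 was lower by DESeq2. The G1 cyclin Ccnd1 fell in both genotypes, more in TβRII flox/flox PT cells (-1.51 ± 0.07) than in TβRII-/- PT cells (-0.92 ± 0.06), with an interaction of 0.59 ± 0.09 (adjusted p = 6.03e-05), the sign opposite to that of every mitotic member.

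**Figure D4:**
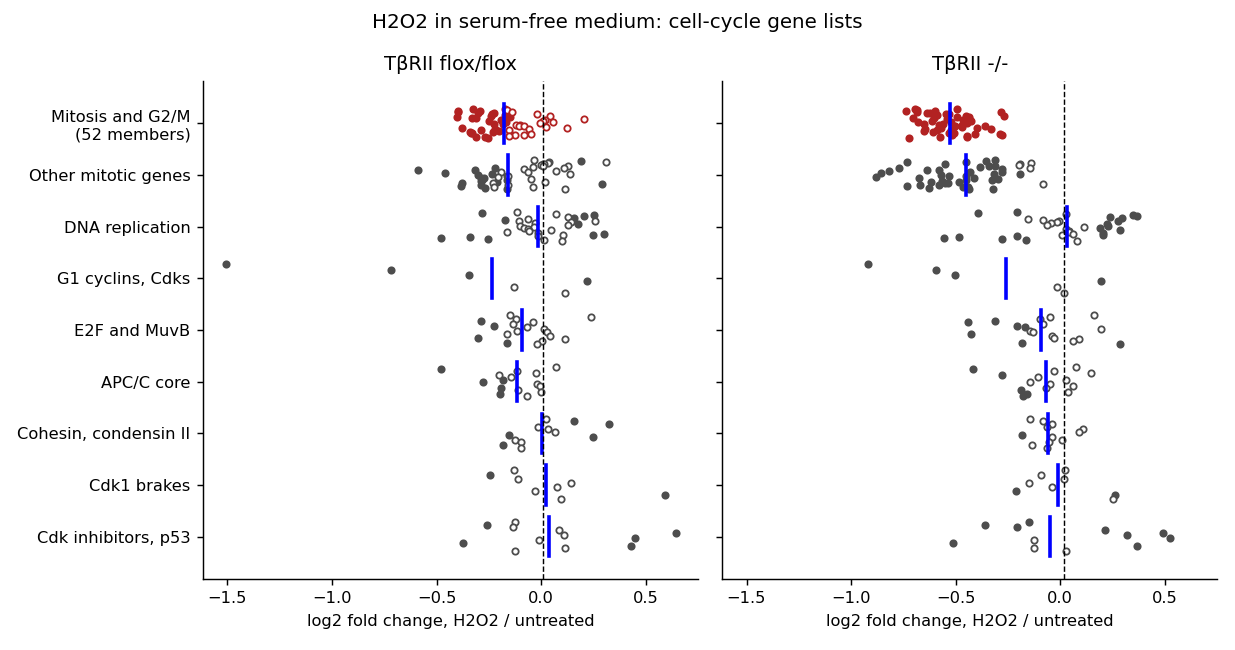
Log2 fold changes with H2O2 in serum-free medium in TβRII flox/flox (left) and TβRII-/- PT cells (right) for the 52 members and 8 other lists of cell cycle genes; each point is a gene (filled, adjusted p under 0.05), blue bars are list medians and the dashed line is the median of all genes tested. The members (median -0.53) and the other mitotic genes (-0.45) lie left of the line in TβRII-/- PT cells, and the DNA replication genes (0.03) lie on both sides of it.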

How the data were processed

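mRNA of 12 libraries of PT cells was sequenced as stranded libraries. The authors trimmed reads with fastp, used STAR for alignment (GRCm38.p6, GENCODE M23) and featureCounts for counting, and deposited unnormalized counts per transcript. Identifiers of 104820 of the 106332 transcripts were found in GENCODE M39. The transcript with the highest total stood for each of 25514 genes, since a read can count on several transcripts. Groups and replicate numbers came from the labels, which spell the title of replicate 3 in the untreated TβRII flox/flox group unlike its partners.

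Counts were fitted with edgeR 4.0.16 in R 4.3.3 (TMM, filterByExpr, glmQLFit and glmQLFTest, a mean per group, all 12 libraries), and p-values were adjusted over 12971 genes. Replicates differed by more than sampling noise (chi-square per gene 3.58 to 12.0). Code was tested on simulated data. The members and the other lists were chosen with earlier results of these data known. Members given library by library were Cdk1, Ccnb1, Plk1, Top2a and Mki67, the 3 with the largest called rise and fall in each pairwise comparison and the 3 with the smallest interaction p. Other genes named are among the largest called changes over the other lists in a comparison, not all of which are given. Further genes are named for a count of 1 or to list the genes behind a count. Alternatives were DESeq2 1.42.0, its size factors in edgeR, other filters, summed transcripts, the replicate number as a block, only the groups compared, the study's limits and each library left out. Promoter windows came from RefSeq on GRCm38.p6, and exon overlaps from GENCODE M39.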

Additional observations from a re-analysis of the deposited data

Results flagged for a closer look

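The test of the interaction marked 41 members, whose H2O2 effect differed between the genotypes with an adjusted p under 0.05 in edgeR. Values are the log2 fold change with H2O2 in TβRII-/- PT cells minus that in TβRII flox/flox PT cells. Among the genes of entry into mitosis it was -0.51 for Ccnf, -0.40 for Ccnb1, -0.37 for Aurka, -0.35 for Foxm1, -0.33 for Ccna2, -0.31 for Cdc25b, -0.28 for Cdk1 and -0.27 for Plk1. For the spindle checkpoint it was -0.30 for Bub1 and -0.29 for Bub1b. Genes of mitotic exit and cohesion had -0.47 for Ube2c, -0.44 for Espl1, -0.42 for Cdc20, -0.36 for Sgo1 and -0.34 for Cdca3. In the passenger complex it was -0.52 for Aurkb, -0.44 for Incenp, -0.40 for Cdca8 and -0.34 for Birc5. Kinetochore genes had -0.75 for Cenpa, -0.49 for Knl1, -0.45 for Cenpf, -0.39 for Spc25, -0.37 for Nuf2 and -0.27 for Cenpe. For spindle genes it was -0.74 for Hmmr, -0.47 for Kif11, -0.45 for Nusap1, -0.40 for Kif2c, -0.31 for Tpx2 and -0.28 for Kif4. Cytokinesis genes had -0.48 for Kif20b, -0.36 for Ect2, -0.35 for Kif23, -0.34 for Kif20a, -0.32 for Anln and -0.29 for Prc1. Genes of chromosome structure had -0.52 for Mki67, -0.43 for Ncapg, -0.29 for Top2a and -0.27 for Ncaph.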

How the results depend on the processing

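The count of 52 members lower with H2O2 in TβRII-/- PT cells was the same in every alternative with an adjusted p under 0.05. With the study's limits it was 18, and in TβRII flox/flox PT cells 0 were lower. Under those limits 3 members were higher and 0 lower in untreated TβRII-/- PT cells, and 0 were higher and 5 lower with H2O2. In TβRII flox/flox PT cells 1 member was higher with H2O2 without a filter on low counts and 1 with at least 10 counts in every library. Leaving out a library gave 0 to 2 higher and 20 to 28 lower there. In H2O2-treated TβRII-/- PT cells it gave 3 to 6 higher and 28 to 34 lower than TβRII flox/flox PT cells, and untreated 20 to 25 higher and 7 to 9 lower. For the interaction it gave 28 to 44 lower. DESeq2 gave 27 lower in TβRII flox/flox PT cells and 42 lower interactions, summed transcripts 25 and 33, and 36 interactions were lower without a filter. No called value of a named member changed sign. Of 95 values of named members, 74 kept their side of the threshold in every alternative run, 18 lost a call in at least 1 and 3 gained one. Same-numbered libraries did not deviate together (correlations -0.10 to 0.06 over 18 pairs, 0 above 0.1), so no shared effect of the numbers was seen. The labels do not say whether the numbers pair libraries. With the replicate number as a block 37 interactions were lower, with 29 members lower with H2O2 in TβRII flox/flox and 52 in TβRII-/- PT cells, and the genotype counts were 24 higher and 8 lower untreated and 6 and 31 with H2O2. Depth and 3 libraries per group left interactions an SE from 0.08 for Tpx2 to 0.14 for Ndc80, and each count rests on 1 transcript of a gene.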
